A study of Rattus norvegicus with 8 samples.

Results

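Heat shock proteins and their cochaperones were followed in single-cell RNA data of the rat spinal cord. The members were the genes listed under the symbols Hspa8, Hspa1a, Hspa1b, Hsp90aa1, Hsp90ab1, Hspb1, Dnajb1, Hsph1, Hspd1 and Hspe1. Of these 10 symbols, 9 had a row among the 32623 genes measured, and Hspa1a was not analysed here. They were divided by their textbook roles into 4 constitutive members (Hspa8, Hsp90ab1, Hspd1, Hspe1) and 5 inducible members (Hspa1b, Hsp90aa1, Hspb1, Dnajb1, Hsph1). The animals were female Wistar rats of 8 weeks, and 10 mm of cord was taken 7 days after surgery. In the mild, moderate and severe groups a 10 g weight was dropped on the exposed thoracic cord from rising heights, and the sham group had the vertebral arch removed without contusion, so that all 4 groups shared the opening of the spine. Each group had 2 libraries, called replicates 1 and 2. The study speaks of a separate cord for each library, but the labels do not name the animals, so the p-values measure the spread between these libraries, which may be technical.

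Heat shock proteins are chaperones, which hold unfolded proteins and help them to fold. HSP70 proteins bind exposed stretches of a chain and release them with ATP. J-domain proteins such as Dnajb1 hand the chain over and start the ATP cycle, and Hsph1, an HSP110 protein, exchanges the nucleotide. HSP90 proteins act later, on kinases and steroid receptors among others. Hspd1 and Hspe1 form the barrel and the lid of the mitochondrial chaperonin, and Hspb1 is a small heat shock protein that holds unfolded proteins without ATP. Hspa8 (HSC70) and Hsp90ab1 are made in nearly every cell at rest. Hspa1b (HSP70), Hsp90aa1, Dnajb1, Hsph1 and Hspb1 are raised by heat, ischaemia and other stress through heat shock factor 1 (HSF1), which binds repeats of the unit GAA and its complement TTC. In nervous tissue Hspb1 is known from vessels and reactive glia.

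The promoters of the members are shown because they differ in these repeats. RefSeq windows of 300 bases (250 before the start site and 50 after it, assembly GRCr8) were matched by symbol for 7 of the 9 measured members, and none was matched for Hspa1b or Hsp90aa1. Each window was searched on both strands for 3 units (TTCNNGAANNTTC or GAANNTTCNNGAA) and for 2 units (TTCNNGAA or GAANNTTC), which the longer motifs contain. Capitals mark the matches with 3 units in Hspa8, Hspe1 and Hsph1 and those with 2 units in Hspb1 and Dnajb1. The windows lie at chr8:50080264-50080563 (plus strand, Hspa8), chr9:64084077-64084376 (plus, Hspe1), chr12:10427118-10427417 (plus, Hsph1), chr12:26432252-26432551 (minus, Hspb1) and chr19:41431092-41431391 (minus, Dnajb1), and each is printed 5′ to 3′ on the strand of its gene.
Hspa8: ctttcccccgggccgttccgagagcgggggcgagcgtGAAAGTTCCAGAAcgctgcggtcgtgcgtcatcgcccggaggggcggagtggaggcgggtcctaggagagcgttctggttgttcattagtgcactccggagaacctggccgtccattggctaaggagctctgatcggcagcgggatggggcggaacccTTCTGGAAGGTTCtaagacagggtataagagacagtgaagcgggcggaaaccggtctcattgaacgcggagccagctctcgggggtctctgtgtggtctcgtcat
Hspe1: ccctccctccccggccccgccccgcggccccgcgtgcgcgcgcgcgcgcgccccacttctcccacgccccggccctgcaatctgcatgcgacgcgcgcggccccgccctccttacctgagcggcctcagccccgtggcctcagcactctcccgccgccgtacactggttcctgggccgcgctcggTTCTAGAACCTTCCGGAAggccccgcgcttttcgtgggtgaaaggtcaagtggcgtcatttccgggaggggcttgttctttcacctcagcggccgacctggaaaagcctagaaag
Hsph1: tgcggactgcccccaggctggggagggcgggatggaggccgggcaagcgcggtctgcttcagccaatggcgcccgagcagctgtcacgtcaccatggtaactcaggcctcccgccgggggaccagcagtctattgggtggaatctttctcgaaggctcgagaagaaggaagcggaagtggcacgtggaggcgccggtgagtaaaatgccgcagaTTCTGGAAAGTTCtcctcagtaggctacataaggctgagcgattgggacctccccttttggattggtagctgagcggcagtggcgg
Hspb1: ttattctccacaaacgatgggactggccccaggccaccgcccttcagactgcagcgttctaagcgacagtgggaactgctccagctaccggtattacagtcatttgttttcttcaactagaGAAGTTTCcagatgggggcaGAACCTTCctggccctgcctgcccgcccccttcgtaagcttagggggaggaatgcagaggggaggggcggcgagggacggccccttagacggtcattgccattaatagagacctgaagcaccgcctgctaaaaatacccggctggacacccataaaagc
Dnajb1: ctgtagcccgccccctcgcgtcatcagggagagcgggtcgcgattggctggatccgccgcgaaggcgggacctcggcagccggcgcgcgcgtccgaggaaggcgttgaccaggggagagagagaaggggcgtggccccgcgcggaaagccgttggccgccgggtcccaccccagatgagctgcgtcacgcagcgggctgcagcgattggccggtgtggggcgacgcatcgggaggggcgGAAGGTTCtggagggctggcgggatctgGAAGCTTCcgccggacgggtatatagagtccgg
Matches with 3 units were found in Hspa8 (2 matches), Hspd1 (2), Hspe1 (2) and Hsph1 (1), against 0.798% of all 33469 promoters of the same length. Hspb1 and Dnajb1 held only matches with 2 units, 2 in each, against 15.9% of all promoters with either order of 2 units. None was found in the window of Hsp90ab1. Most of that window (chr9:22930173-22930472) lay inside the annotated gene, which starts at 22930249. The matches in Hspa8 began 213 and 55 bases before the start site, and the match in Hsph1 36 bases before it. The start sites used for the Hspd1 and Hspe1 windows lay 290 bases apart on opposite strands, and the windows shared 211 bases. The capitals in the Hspe1 window are therefore also those of Hspd1. The annotated Hspd1 gene reaches to base 64084332, past the start of Hspe1 at 64084327, so that the Hspd1 window lay inside its gene. Thus 3 of the 4 windows of constitutive members held the longer motif. A match of letters is a description and does not show that a factor binds.

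Counts of unique molecular identifiers (UMIs, each standing for 1 captured RNA molecule) were pooled within a library for all cells of a type and scaled to CPM, the UMIs of a gene in every 1000000 UMIs of that pool. The libraries held 31482153 to 131045446 UMIs, and 55449 of 68658 cells were kept. A gate on 119 marker genes, none of them a member, gave 47568 cells a type, among them 26601 macrophages/microglia, 7511 neutrophils, 3860 oligodendrocytes, 2970 oligodendrocyte precursors (OPCs), 1957 fibroblasts, 1389 dendritic cells/monocytes, 1280 T cells/NK cells, 407 endothelial cells and 166 astrocytes. Only 34 cells were gated as neurons. Sums of at least 20 cells were tested. No 2 libraries shared more than 24 cell barcodes. The sham libraries stood apart from each other: replicate 1 held 4464 neutrophils against 1 in replicate 2, its median mitochondrial share was 1.38% against 5.88%, and its macrophages/microglia carried 2529 CPM of the neutrophil gene S100a9 against 88.6 CPM. Member changes against sham are therefore also given without sham replicate 1 in macrophages/microglia and endothelial cells. In OPCs and oligodendrocytes, the other types tested against sham, these sizes are not given for members. For OPCs the text names the calls lost in that fit, which left 1 sham library. The files count the 3′ ends of RNA, so that levels are compared for 1 gene between cells and libraries and not between genes, apart from ratios set side by side.

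The member with the largest differences between libraries was Hspa1b. In macrophages/microglia its level was 6728 CPM in sham replicate 1 and 14.8 CPM in sham replicate 2. It was 26.8 and 20.01 CPM in the mild libraries, 515 and 485 CPM in the moderate libraries and 519.7 and 509 CPM in the severe libraries. The injured libraries thus fell into a low pair and 4 libraries at a like level, while the sham libraries lay on both sides of all of them. Hsph1, the exchange factor of HSP70, was split in the same way, with 647 and 24.3 CPM in sham, 36.4 and 30.3 CPM in mild, 152 and 188 CPM in moderate and 102 CPM in both severe libraries. Dnajb1 was at 443 and 44.1 CPM in sham, 59.0 and 46.5 CPM in mild, 268 and 201 CPM in moderate, and 115 and 175 CPM in severe libraries. The 3 genes of the HSP70 cycle were therefore lowest in sham replicate 2 and the mild libraries.

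Hspb1 and Hsp90aa1 departed from this order in the severe libraries. Hspb1 was at 631 and 64.7 CPM in the sham libraries, 10.4 and 17.5 CPM in the mild, 362 and 551 CPM in the moderate, and 17.6 and 122 CPM in the severe libraries. Hsp90aa1, the inducible HSP90, was at 486 and 145 CPM in sham, 202 and 150.0 CPM in mild, 392 and 628 CPM in moderate, and 167 and 128 CPM in severe libraries. Both genes were higher in the moderate libraries than in any other injured library. All 5 inducible members were higher in both moderate libraries than in both mild ones, against 1 of the 4 constitutive members and 31.4% of all genes tested in macrophages/microglia. In dendritic cells/monocytes this held for 5 of 5 inducible and 4 of 4 constitutive members (30.3% of all genes), and in OPCs for 5 of 5 and 1 of 4 (31.0%). Over the 7 types compared, it held in 7 for Hsp90aa1 and Hsph1, 6 for Hspb1, 5 for Hspa1b and Hspe1, and 4 for Dnajb1. It held in 3 for Hsp90ab1 and Hspd1 and in 1 for Hspa8. Dnajb1 and Hspa8 were each lower in 1 type. The share of all genes ran from 17.2% in neutrophils to 40.2% in oligodendrocytes, and is not given for fibroblasts.

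**Figure D1:**
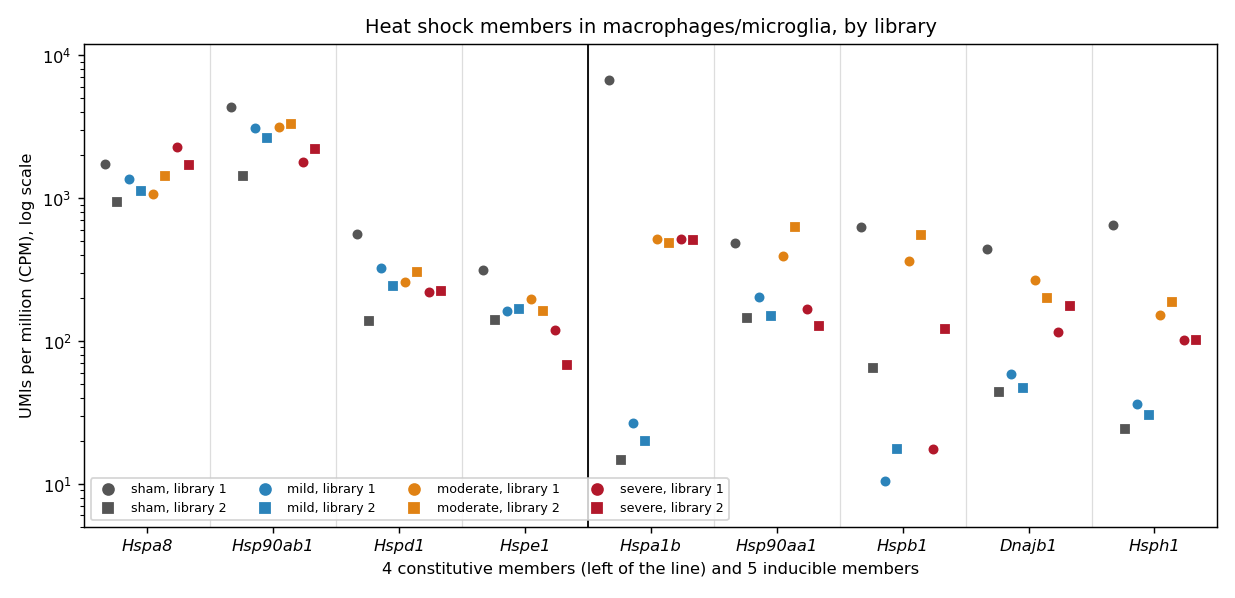
Level of each member in macrophages/microglia, in CPM on a log axis, with 1 point per library. Colours mark the groups, circles replicate 1 and squares replicate 2. The inducible members spread over wider ranges than the constitutive members, with Hspa1b between 14.8 and 6728 CPM.

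The constitutive members moved less in the same cells. Hspa8 was at 1729 and 937 CPM in the sham libraries, 1364 and 1119 CPM in the mild, 1062 and 1438 CPM in the moderate, and 2277 and 1706 CPM in the severe libraries, so that severe replicate 1 was the highest of all. Hsp90ab1 was at 4342 and 1425 CPM in sham, at 2655 to 3329 CPM in the mild and moderate libraries, and at 1778 and 2218 CPM in the severe libraries. Of the chaperonin genes, Hspe1 was lower in both severe libraries than in both moderate ones, as were 53.4% of all genes tested. Hspd1 ranged from 138 CPM in sham replicate 2 to 558 CPM in sham replicate 1, with 219.7 to 324 CPM in the injured libraries. Hspe1 ranged from 68.0 CPM in severe replicate 2 to 316 CPM in sham replicate 1. Summed over the 4 genes, the constitutive members took 4183 to 5234 CPM in the 6 injured libraries, and the 5 inducible members 264 to 2053 CPM.

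In the test across all genes (edgeR's quasi-likelihood test with Benjamini-Hochberg adjustment, threshold 0.05), no member passed in macrophages/microglia. Against sham, 0 of 9 members were called in the mild group, where 8.68% of all genes were, 0 after moderate (3.71% of all genes) and 0 after severe injury (10.0% of all genes). At an unadjusted p under 0.05 these counts were 4, 0 and 1 members, beside 4009, 3159 and 4069 of the 13195 genes tested. DESeq2 called 3, 0 and 1 members, beside 2348, 1529 and 2516 genes. The errors were wide: Hspa1b had a log2 fold change of -6.94 in the mild group with a standard error (SE) of 1.98 (adjusted p = 0.0649), of -2.58 after moderate (1.62, 0.369) and of -2.09 after severe injury (1.59, 0.399). The median log2 fold change of the inducible members was -3.11 after mild, 0.10 after moderate and -1.10 after severe injury, beside -0.03, -0.02 and -0.11 over all genes tested. For the constitutive members it was -0.05, -0.10 and -0.02.

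Without sham replicate 1 the direction of Hspa1b turned in the 3 groups. Hspa1b was then higher than sham replicate 2 by 0.64 on the log2 scale in the mild group, by 4.99 after moderate injury and by 5.48 after severe injury. Hsph1 was higher by 2.72 in the moderate and 2.43 in the severe group, and Dnajb1 by 2.32 and 2.10. Hsp90aa1 was higher in the moderate group by 1.72, and Hspa8 in the severe group by 1.44. Hspd1 was higher in the mild group by 1.01 and in the severe group by 1.05. Hspb1 remained lower in the mild group (-2.23), but was higher after moderate (2.73) and severe injury (0.53). Hsp90ab1 was higher by 0.98 in the mild, 1.10 in the moderate and 0.86 in the severe group. In this fit the lone sham library was assumed to vary like the other groups, so that only sizes of change are given and no call is read from it. S100a9 was at 5.28 to 97.1 CPM in macrophages/microglia of the other 7 libraries. The part that neutrophil RNA, the mitochondrial share or the sham surgery had in the levels of sham replicate 1 was not tested.

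Between neighbouring degrees, macrophages/microglia gave 0 called members in moderate against mild, where edgeR called 0% of all genes, with 4 members and 1743 genes at an unadjusted p under 0.05 and 1 member and 260 genes called by DESeq2. Hspb1 was higher by 4.97 (SE 1.19, adjusted p = 0.298), Hspa1b by 4.36 (1.76, 0.35) and Hsph1 by 2.30 (1.02, 0.385). The median over the inducible members was 2.30 and over the constitutive members 0.01, beside 0.00117 over all genes. With the 6 injured libraries alone in the fit, Hspa1b (adjusted p = 0.00116), Hsph1 (0.00914) and Dnajb1 (0.0493) passed, and Hspb1 (0.0908) and Hsp90aa1 (0.0998) did not. This fit was added after the data had been seen. The share of all genes that passed in it is not given here, so its calls cannot be set against a background. In severe against moderate, 0 members were called beside 1.86% of all genes. At an unadjusted p under 0.05 there were 2 members, beside 2923 of 13195 genes. DESeq2 called 1 member, and its share over all genes is not given here. There Hsp90aa1 was lower by 1.34 (SE 0.47, adjusted p = 0.158) and Hspa8 higher by 1.12 (0.31, 0.111), and both passed with the injured libraries alone (0.0313 and 0.0417). Scaling by library size in place of TMM moved the median of all genes in the severe group by -0.49 against sham and by -0.45 against moderate. It also lowered the share of higher genes among the calls from 59.5% to 17.8% and from 43.1% to 9.26%, and called 0 members in either comparison.

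OPCs, the dividing precursors of oligodendrocytes, gave all 6 calls of members against sham. Hspa1b was at 371 and 236 CPM in sham, 137 and 81.8 CPM in mild, 613 and 1403 CPM in moderate, and 867 and 757 CPM in severe libraries. The level in sham replicate 2 rested on 1 cell, which held 142 of the 148 Hspa1b UMIs of its 70 OPCs, and without that cell the level was 9.67 CPM. In sham replicate 1 the richest of 65 OPCs held 75 of 179 UMIs, and without it the level was 220.1 CPM. Every moderate and severe library was above both sham libraries with or without these cells, while the mild libraries were below both sham libraries only with them. Hspa1b fell after mild injury by 1.45 on the log2 scale (SE 0.39, adjusted p = 0.0412) and rose after moderate injury by 1.72 (0.38, 0.0171) and after severe injury by 1.72 (0.39, 0.0162). With the replicate number as a block, the mild call was lost (adjusted p = 0.06). Sham replicate 1 gave 26.2% of OPCs with an Hspa1b UMI and sham replicate 2 gave 1.43%, after each cell was thinned to 1000 UMIs. In a fit added after the data had been seen, the OPC with the most Hspa1b UMIs was left out of each library. The log2 fold change of Hspa1b was then -0.04 in the mild group (adjusted p = 0.981), 3.19 after moderate (0.0232) and 3.12 after severe injury (0.0245), so that the lower level after mild injury was not seen without these cells.

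Against sham, OPCs called 1 member in the mild group (6.67% of all genes), 3 after moderate injury (8.14%) and 2 after severe injury (10.7%). Dnajb1 was at 68.3 and 38.3 CPM in sham and at 233 and 169 CPM in the moderate libraries, and rose by 1.95 (SE 0.34, adjusted p = 0.00599), a call that held when any 1 library was left out. Hsp90aa1 was at 180.2 and 361 CPM in sham and at 712 and 1055 CPM in the moderate libraries, and rose by 1.67 (0.35, 0.0133). Hspa8 was at 837 and 1203 CPM in sham and at 2453 and 1769.5 CPM in the severe libraries, and rose by 1.32 (0.32, 0.0218). The calls of Hspa1b and Hsp90aa1 in the moderate group were lost without moderate replicate 2. Those in the severe group were lost without either severe library, and that of Hspa8 also without sham replicate 1. In the mild group the Hspa1b call was lost without sham replicate 1, either mild library or either severe library. With the Hspa1b-richest OPC of each library left out, 0, 4 and 3 members were called in the 3 groups, Hsph1 (1.77, adjusted p = 0.0181) being added after moderate and Dnajb1 (1.19, 0.0483) after severe injury. The share of all genes that passed in this fit is not given here, so these counts cannot be set against a background. The richest OPC of sham replicate 2 by Hsph1 held 64 of its 92 UMIs.

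Between neighbouring degrees OPCs called 2 members in moderate against mild (1.65% of all genes) and 4 in severe against moderate (8.50%). From mild to moderate Hspa1b rose by 3.17 (SE 0.40, adjusted p = 0.00264) and Hsph1 by 1.87 (0.30, 0.0163), from 83.3 and 71.2 CPM to 191 and 383 CPM. From moderate to severe Hsp90aa1 fell by 1.66 (0.35, 0.0149) to 257 and 198 CPM, Hsph1 fell by 1.24 (0.30, 0.0266) to 107 and 89.4 CPM and Dnajb1 fell by 1.04 (0.30, 0.048) to 67.2 and 89.6 CPM. Hspa8 rose by 1.13 (0.31, 0.0428). Hspa1b was not among these calls and was at 867 and 757 CPM, between the moderate libraries. With the replicate block, Hspa8 (adjusted p = 0.0823) and Dnajb1 (0.0829) no longer passed. With the Hspa1b-richest OPC of each library left out, Hsph1 did not pass from moderate to severe (adjusted p = 0.0557), and Hspa1b (0.0468) and Hsph1 (0.0349) passed from mild to moderate. Each of the calls from moderate to severe was lost in some of the fits without 1 library, those of Hspa8 and Dnajb1 when any 1 of the 6 injured libraries was left out. From mild to moderate, Hspa1b was lost without mild replicate 2, and Hsph1 without either mild library or moderate replicate 2.

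**Figure D2:**
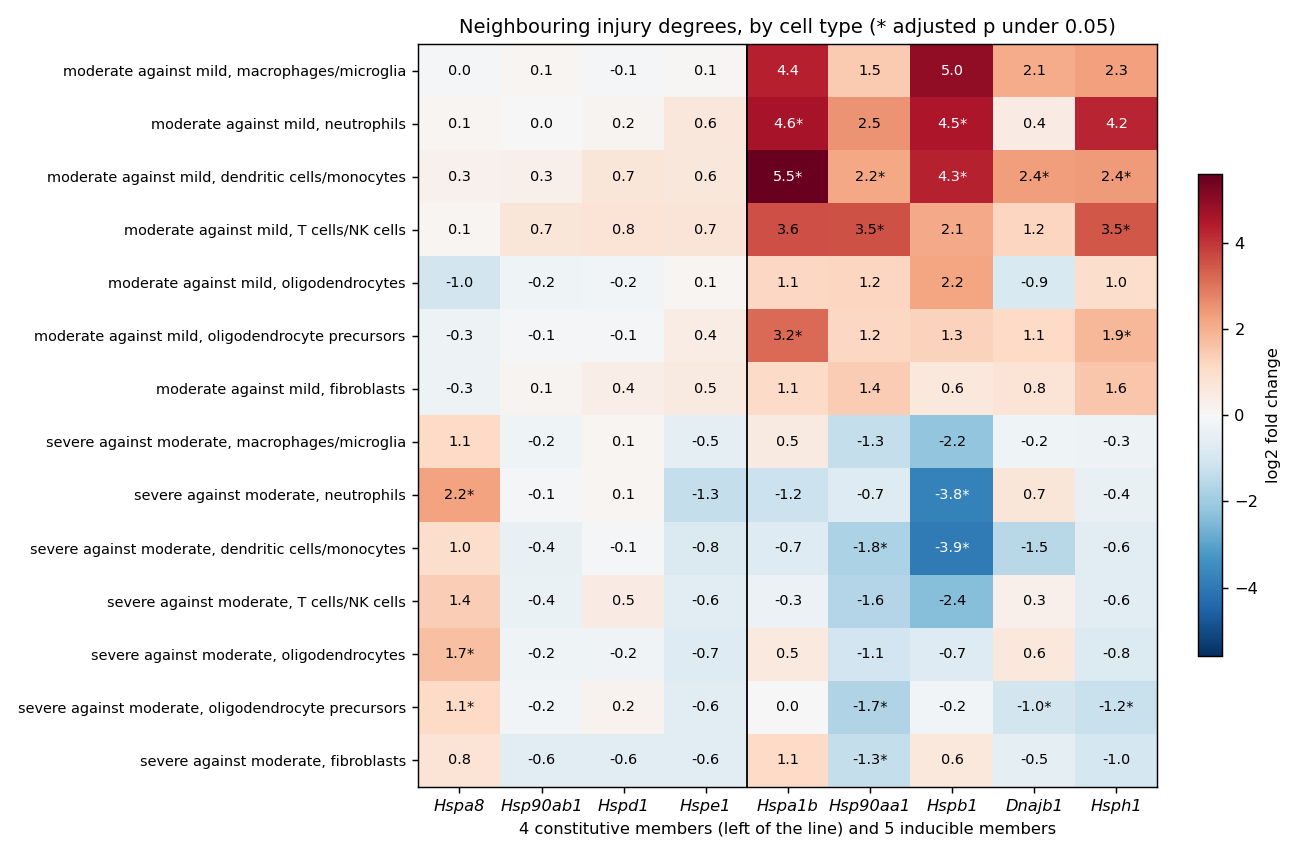
Heat map of the log2 fold change of each member between neighbouring injury degrees in 7 cell types, red for higher and blue for lower in the more severe degree, with an asterisk at an adjusted p under 0.05. In dendritic cells/monocytes all 5 inducible members passed from mild to moderate, and Hspb1 and Hsp90aa1 fell from moderate to severe.

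Among immune cells the inducible members were followed across the injured groups, since sham replicate 2 held too few of these cells for a test against sham. Dendritic cells/monocytes called 5 of 9 members in moderate against mild, all of them inducible and all higher, beside 0.302% of all genes. Hspa1b was at 3.30 and 25.9 CPM in the mild libraries (6 and 12 UMIs, of which 4 and 9 came from 1 cell) and at 667 and 379 CPM in the moderate libraries, and rose by 5.54 (SE 0.65, adjusted p = 0.00146), which held when any 1 library was left out. Hspb1 rose by 4.33 (0.58, 0.0029) from 3.30 and 6.48 CPM to 105 and 80.8 CPM. Hsph1 rose by 2.37 (0.35, 0.00694), Hsp90aa1 by 2.17 (0.34, 0.00923) and Dnajb1 by 2.36 (0.43, 0.0291), the last from 84.1 and 86.4 CPM to 712 and 249 CPM. Without mild replicate 1 the calls of these 4 genes were lost, without mild replicate 2 those of Hsph1, Hsp90aa1 and Dnajb1, and without moderate replicate 1 that of Dnajb1. From moderate to severe 2 members were called (2.08% of all genes): Hspb1 fell by 3.95 (0.48, 0.000274) to 2.17 and 6.48 CPM, and Hsp90aa1 fell by 1.78 (0.33, 0.00866) to 206 and 103 CPM. Both calls held when any 1 library was left out.

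T cells/NK cells called 2 members in moderate against mild (0.387% of all genes). Hsp90aa1 rose by 3.55 (SE 0.58, adjusted p = 0.00145), from 59.8 and 63.4 CPM to 343 and 1319 CPM, and Hsph1 by 3.48 (0.55, 0.00131), from 25.6 and 63.4 CPM to 246 and 664 CPM. Moderate replicate 2 held 43 such cells. Both calls were lost without mild replicate 1, and that of Hsp90aa1 also without mild replicate 2. Hspa1b had no UMI in mild replicate 1, where 3 UMIs would have made 6.41 CPM, and was at 137 CPM in mild replicate 2, where 1 cell held all 13 UMIs, and at 426 and 528 CPM in the moderate libraries. In severe against moderate edgeR called 0 members beside 1.74% of all genes. At an unadjusted p under 0.05 there were 3 members, beside 803 of 6197 genes. DESeq2 called 1 member, and its share over all genes is not given here.

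Neutrophils called 2 members in moderate against mild (0.819% of all genes) and 2 in severe against moderate (1.61%). Hspa1b was at 7.45 and 20.6 CPM in the mild libraries and at 210.3 and 205 CPM in the moderate libraries, and rose by 4.61 (SE 0.75, adjusted p = 0.00429). Hspb1 rose by 4.52 (0.76, 0.00458) from 4.66 and 10.3 CPM to 60.9 and 148 CPM, and fell by 3.79 (0.64, 0.00287) to 2.59 and 13.5 CPM in the severe libraries. The mild libraries held 1237 and 106 neutrophils, with medians of 803 and 806 UMIs per cell. The mild levels of both genes, and the severe levels of Hspb1, therefore rested on few UMIs, and the sizes of these changes are uncertain. Hspa8 rose from moderate to severe by 2.23 (0.51, 0.0286), from 288 and 558 CPM to 2456 and 911 CPM. Without mild replicate 1 both calls from mild to moderate were lost, without moderate replicate 2 both calls of Hspb1, and that of Hspa8 was lost in 6 of the 7 fits without 1 library. Only in sham replicate 1 was the level of Hspa1b in neutrophils above 1000 CPM, at 5981 CPM, where Hsph1 was at 2304 CPM and Hsp90aa1 at 1233 CPM.

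Oligodendrocytes, which make myelin, called no member against sham in edgeR's test, beside 6.26% of all genes after mild, 2.42% after moderate and 0.849% after severe injury. At an unadjusted p under 0.05 these counts were 3, 1 and 2 members, beside 2731, 2042 and 2115 of 9776 genes. DESeq2 called 0 members in each. The fit without sham replicate 1 left 1 sham library in these cells, and no call is read from it. In moderate against mild 0 members were called (0.0409% of all genes). At an unadjusted p under 0.05 there were 4 members, beside 2167 of 9776 genes. DESeq2 called 2 members, and its share over all genes is not given here. In severe against moderate 1 was called (11.5% of all genes): Hspa8 rose by 1.68 (SE 0.31, adjusted p = 0.0159), from 624 and 651 CPM to 1954 and 1143 CPM, a call lost without either moderate library. Hspa1b spanned 471 and 2.23 CPM (1 UMI) in the sham libraries of these cells, 79.6 and 42.0 CPM in mild, 73.4 and 236 CPM in moderate, and 253 and 87.2 CPM in severe libraries, so that every group pair overlapped that of sham.

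Fibroblasts called no member in moderate against mild, where edgeR called 0% of all genes (2100 genes and 2 members at an unadjusted p under 0.05, 227 genes and 2 members by DESeq2). In severe against moderate 1 was called (7.42% of all genes): Hsp90aa1 fell by 1.33 (SE 0.28, adjusted p = 0.0397), from 358 and 616 CPM to 161 and 126 CPM, and the call was lost when any 1 of the 6 injured libraries was left out. Endothelial cells could be tested in severe against sham, where edgeR called 0 members beside 0.523% of all genes. At an unadjusted p under 0.05 there were 3 members, beside 1115 of 7845 genes. DESeq2 called 1 member, and its share over all genes is not given here. Without sham replicate 1, which left 1 sham library, Hspa1b was higher there by 3.13 on the log2 scale, Dnajb1 by 2.15 and Hspa8 by 1.34. No call is read from that fit. Their Hspa1b was at 1973 and 272 CPM in sham and at 1833 and 2142 CPM in the severe libraries, and their Hspb1 at 1005 and 888 CPM in sham and at 1639 and 1838 CPM in the severe libraries.

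Each cell type was then compared with the mean of the others, with the library as a term, in 1 fit over 11 types. Hspb1 set the types apart most widely. It was at 2754, 2219 and 2816 CPM in astrocytes of the moderate libraries and severe replicate 2, the 3 with at least 20 such cells, and at 888 to 1838 CPM in endothelial cells. OPCs had 278 to 893 CPM and fibroblasts 248 to 797 CPM. Oligodendrocytes had 4.54 to 72.2 CPM, T cells/NK cells 4.27 to 48.0 CPM and dendritic cells/monocytes 2.17 to 105 CPM. No library put the last 3 types above endothelial cells. Hspb1 was higher in endothelial cells by 4.08 (SE 0.38, adjusted p = 3.15e-14), in astrocytes by 3.57 (0.44, 1.54e-09), in fibroblasts by 2.31 (0.34, 6.04e-08) and in OPCs by 2.04 (0.34, 5.12e-07), and lower in T cells/NK cells by 3.20 (0.58, 6.13e-06). It was also lower in dendritic cells/monocytes, oligodendrocytes and neutrophils, with log2 differences of -2.72, -2.64 and -2.07. In macrophages/microglia its difference was 0.27 (adjusted p = 0.639), with 10.4 to 631 CPM over the libraries.

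Over all members and the 9 types reported, 30 of 81 differences passed. The share of all genes that passed was 48.8% in macrophages/microglia, 56.0% in neutrophils, 40.4% in dendritic cells/monocytes, 40.6% in T cells/NK cells, 58.1% in oligodendrocytes, 57.4% in OPCs, 53.2% in fibroblasts, 32.6% in endothelial cells and 29.7% in astrocytes. The members passed in 4, 5, 4, 3, 3, 4, 2, 4 and 1 of 9 cases in these types, in that order. Scaling by library size alone moved the median of all genes between -0.61 in neutrophils and 0.69 in OPCs. It gave 37 higher and 10 lower member calls in place of 19 and 11, and turned the direction of none of the 30. Hspe1 lost its calls in oligodendrocytes and endothelial cells under that scaling, and Hsp90aa1, with no call by TMM, passed as higher in OPCs (1.03, adjusted p = 0.000194) and astrocytes (1.09, 0.0188).

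**Figure D3:**
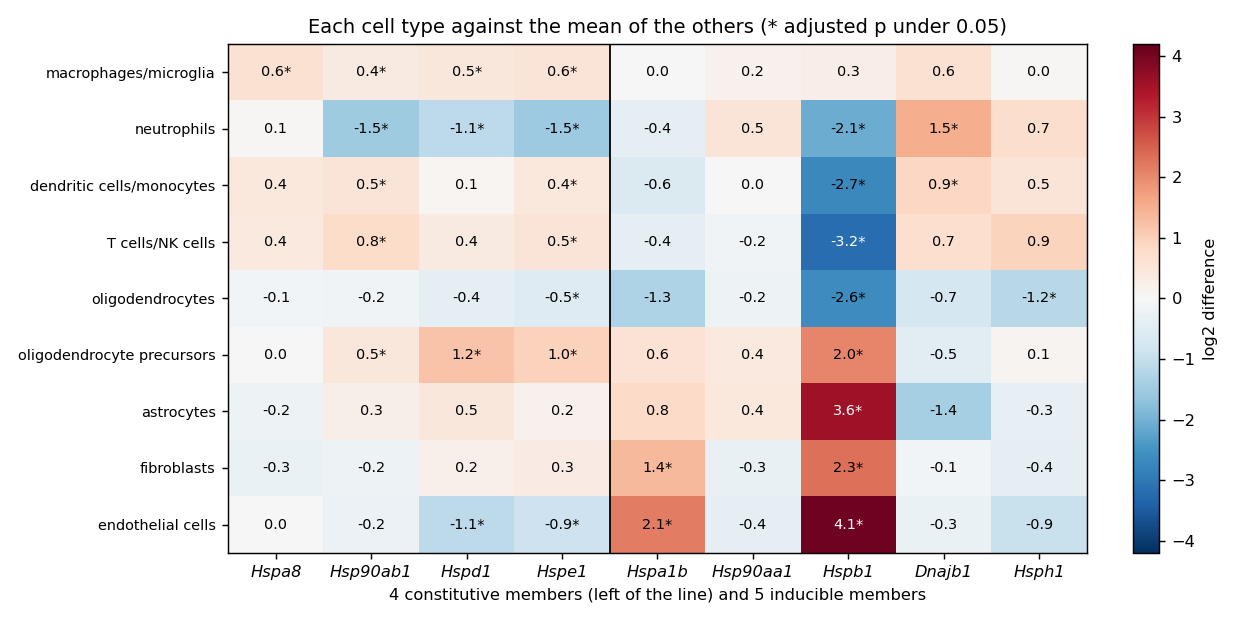
Heat map of the log2 difference of each member between a cell type and the mean of the other types, red for higher and blue for lower, with an asterisk at an adjusted p under 0.05. Hspb1 ranges from -3.20 in T cells/NK cells to 4.08 in endothelial cells, and Hsp90aa1 passed in no type by TMM.

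Hspa1b was the other inducible member with higher levels in the cells of the vessel wall and connective tissue. It was higher in endothelial cells by 2.13 (SE 0.58, adjusted p = 0.00235) and in fibroblasts by 1.35 (0.50, 0.0182). The call in fibroblasts was lost without mild replicate 2 or severe replicate 2. In mild replicate 2 it was at 643 CPM in endothelial cells, 421 CPM in fibroblasts, 81.8 CPM in OPCs and 20.01 CPM in macrophages/microglia. Of the other libraries with low Hspa1b in macrophages/microglia, sham replicate 2 had 272 CPM in endothelial cells, and mild replicate 1 held only 3 endothelial cells and was not used. Dnajb1 was higher in neutrophils by 1.54 (0.31, 2.04e-05) and in dendritic cells/monocytes by 0.85 (0.31, 0.023), and the latter call was lost without moderate replicate 1 or severe replicate 2. Hsph1 was lower in oligodendrocytes (-1.15, SE 0.45, 0.0231), a call lost without moderate replicate 2.

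**Figure D4:**
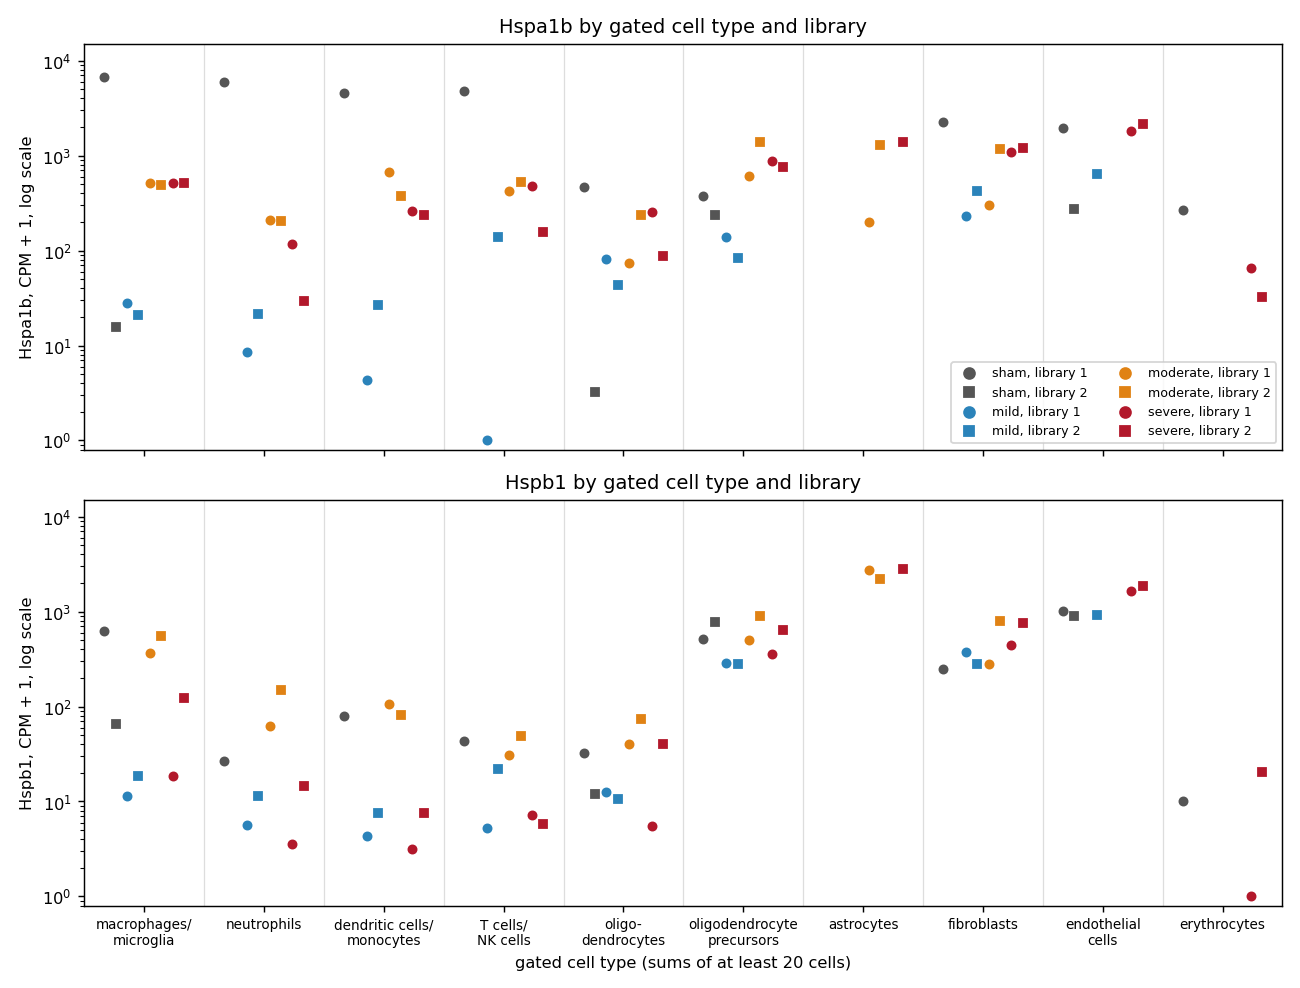
Levels of Hspa1b (top) and Hspb1 (bottom) as CPM + 1 on a log axis, in each cell type and library with at least 20 cells. Colours mark the groups, circles replicate 1 and squares replicate 2. Hspa1b reaches 4582 CPM or more in immune cells of sham replicate 1, while Hspb1 stays at or above 888 CPM in every endothelial and astrocyte sum.

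Among the constitutive members, the chaperonin pair and Hsp90ab1 passed together as higher in OPCs and macrophages/microglia and as lower in neutrophils. In macrophages/microglia Hspe1 was higher by 0.55 (SE 0.17, adjusted p = 0.00406), Hspd1 by 0.46 (0.20, 0.0453) and Hsp90ab1 by 0.39 (0.13, 0.0119). That call of Hspd1 was lost without mild replicate 1, moderate replicate 2 or either severe library. Hspe1 and Hsp90ab1 also passed as higher in dendritic cells/monocytes and T cells/NK cells. OPCs had Hspd1 higher by 1.19 (SE 0.19, adjusted p = 2.95e-07), Hspe1 by 0.96 (0.16, 1.13e-06) and Hsp90ab1 by 0.49 (0.13, 0.00107). Neutrophils had Hspe1 lower by 1.52 (0.23, 7.44e-08), Hsp90ab1 by 1.50 (0.16, 5.3e-12) and Hspd1 by 1.10 (0.25, 0.000156). Endothelial cells had Hspd1 lower by 1.11 (0.30, 0.00204) and Hspe1 by 0.88 (0.25, 0.00445), while Hsp90ab1 there was at -0.24 (adjusted p = 0.346). In fibroblasts none of the 3 passed, with 0.20 for Hspd1, 0.34 for Hspe1 and -0.20 for Hsp90ab1. Hspa8 was higher in macrophages/microglia by 0.65 (0.17, 0.00135) and passed in no other type by TMM. It was at 0.43 (adjusted p = 0.0583) in dendritic cells/monocytes and 0.41 (0.0771) in T cells/NK cells. By library size alone it also passed as higher in these 2 types (0.69 and 0.68), OPCs (0.62) and endothelial cells (0.46), and as lower in neutrophils (-0.40). The largest positive difference of Hsp90ab1 was in T cells/NK cells, higher by 0.76 (0.13, 4.67e-06). Over the 58 sums of at least 50 cells, the Spearman correlation was 0.88 between Hspd1 and Hspe1, 0.83 between Hsp90ab1 and Hspd1 and 0.78 between Hspa1b and Hsph1. These sums share libraries and depth, and no test was made.

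Libraries also differed in ways that ran across cell types. Over the 7 types with at least 20 cells in 7 or more libraries, Hspa8 was highest in severe replicate 1 in 7 of 7. Hspe1 was lowest in severe replicate 2 in 7 of 7. Hsp90aa1 was highest in moderate replicate 2 in 6, and in all 7 when sham replicate 1 was left out, and Hspb1 in 5 and 6. Hspa1b was highest in sham replicate 1 in 6 and lowest in mild replicate 1 in 4. The types of 1 library went through 1 preparation, so these counts describe libraries and not independent samples. The ranks were read from CPM, and the share of all genes with the same ranks is not given here. Both severe libraries lay below both moderate ones in 7 of 7 types for Hspe1, 6 for Hsp90aa1 and Hsp90ab1, and 5 for Hsph1. This held in 4 types for Hspb1 and Hspd1, 3 for Dnajb1, 2 for Hspa1b and 0 for Hspa8. It held for 30.1% of all genes in neutrophils and up to 53.4% in macrophages/microglia. Both severe libraries lay above both moderate ones in 6 types for Hspa8 and 1 for Dnajb1. For all genes this share was 9.87% in macrophages/microglia and up to 14.8% in OPCs. Fibroblasts were not counted in the shares of all genes.

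The balance between the HSP90 genes was read as the ratio of Hsp90aa1 to Hsp90ab1 UMIs, which no scaling between libraries changes. Its median over macrophages/microglia, dendritic cells/monocytes, T cells/NK cells, oligodendrocytes, OPCs and fibroblasts was 0.0604 and 0.0565 after mild injury, 0.127 and 0.188 after moderate injury, and 0.0885 and 0.0504 after severe injury. In the sham libraries it was 0.0764 over 6 types and 0.146 over 3 types. Both moderate medians were above those of the other injured libraries. Within the libraries the ratio ran from 0.0725 to 0.147 in moderate replicate 1 and from 0.147 to 0.197 in moderate replicate 2, and from 0.0172 to 0.0781 in mild replicate 1. Neutrophils of sham replicate 1 had a ratio of 1.41. For the HSP70 genes, the ratio of Hspa1b to Hspa8 in macrophages/microglia was 3.89 and 0.0157 in the sham libraries, 0.0197 and 0.0179 after mild injury, 0.485 and 0.337 after moderate injury, and 0.228 and 0.298 after severe injury.

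**Figure D5:**
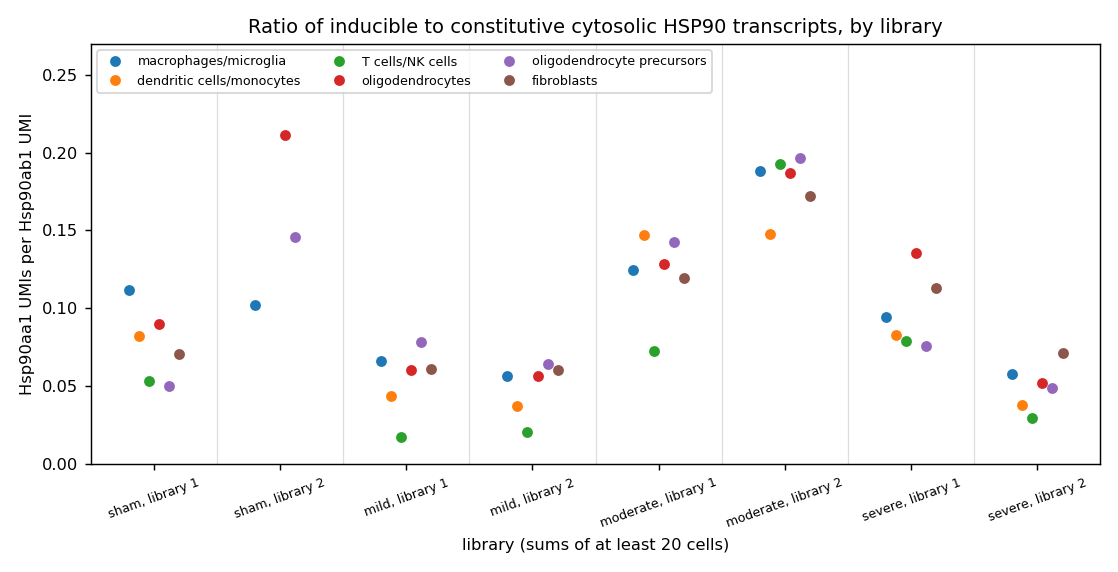
Ratio of Hsp90aa1 to Hsp90ab1 UMIs by library, on a linear axis, with 1 point for each of 6 cell types in colour. The points of moderate replicate 2 lie between 0.147 and 0.197, above every point of the mild and severe libraries.

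Shares of cells with at least 1 UMI were taken after thinning each cell to 1000 UMIs. In macrophages/microglia the share for Hspa8 was 70.8% ± 9.04 (SD, n = 8 libraries) and for Hsp90ab1 87.8% ± 7.97. Hspa1b was found in 62.8% of these cells in sham replicate 1, 0.820% in sham replicate 2, 1.85% and 2.02% after mild injury, 28.9% and 25.3% after moderate injury, and 22.4% and 20.7% after severe injury. Without thinning the share was 70.2% in sham replicate 1 and 5.37% in sham replicate 2. Erythrocytes were set beside them in the 3 libraries with at least 20 such cells: Hspa1b was found in 9.89% of them in sham replicate 1, and in 1.03% and 1.06% in the severe libraries. In these 3 libraries the share in macrophages/microglia was above that in erythrocytes. Erythrocytes had a median of 6627 UMIs and macrophages/microglia one of 10908, and 4021 of every 10000 UMIs of an erythrocyte were of erythroid marker genes, so that their share is a low measure of free RNA. Free RNA was not measured in sham replicate 2 or in the mild and moderate libraries. Hspb1 was found in 74.4% of astrocytes, 52.6% of endothelial cells and 1.43% of T cells/NK cells on average over libraries, against 0.247% of erythrocytes.

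Within macrophages/microglia the Hspa1b molecules were uneven over cells. The tenth of cells with most of it held 45.4% of its UMIs in sham replicate 1, 59.8% and 67.0% after moderate injury, and 78.2% and 75.4% after severe injury. Cells with 5 or more UMIs after thinning made up 38.2% in sham replicate 1, 1.67% and 2.17% after moderate and 3.48% and 2.79% after severe injury. At near equal CPM, the severe libraries thus had fewer cells with a UMI and more cells with many than the moderate libraries, with 2 libraries on each side and no test.

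The wider chaperone network was read from 62 other chaperone, cochaperone and heat shock factor genes. In macrophages/microglia 57 were tested, of which 5 were higher and 2 lower in the mild group than in sham, 1 and 0 after moderate, and 2 and 0 after severe injury, and 0 between neighbouring degrees. These were 12.3%, 1.75% and 3.51% of the list, beside 8.68%, 3.71% and 10.0% of all genes. More of the list and more of all genes passed in each group without sham replicate 1. No call is read from that fit, which left 1 sham library. The median of the list was -0.00145, -0.09 and 0.15 against sham, beside -0.03, -0.02 and -0.11 over all genes. Hsf4, a heat shock factor known from the lens, was higher in all 3 groups, by 2.47 (adjusted p = 0.0273), 2.19 (0.0489) and 3.50 (0.00707). Without sham replicate 1 it was higher by 2.57, 2.28 and 3.58. The call after mild injury was lost without sham replicate 2, either mild library or either moderate library. That after moderate injury was lost without sham replicate 2 or any 1 of the injured libraries. The call after severe injury held when any 1 library was left out. In OPCs, of 55 tested, 2 were higher and 1 lower after mild, 3 and 0 after moderate, and 4 and 1 after severe injury. These were 5.45%, 5.45% and 9.09% of the list, below the 6.67%, 8.14% and 10.7% of all genes. Without sham replicate 1, fewer of the list passed after mild and severe injury. Bag3, a cochaperone of HSP70 in selective autophagy and a known HSF1 target, rose in the moderate group of OPCs by 2.13 (0.00759). Without sham replicate 1 it rose by 1.71. It also rose from mild to moderate in OPCs by 1.60 (0.0206), in dendritic cells/monocytes by 3.86 (0.00146) and in T cells/NK cells by 3.08 (0.0196). From moderate to severe it fell in OPCs by 1.31 (0.0218) and in neutrophils by 3.94 (0.0384). The call in dendritic cells/monocytes was lost without mild replicate 1, and that in T cells/NK cells without either mild library. The call in neutrophils was lost without sham replicate 1, either moderate library or severe replicate 1. Dnaja1, another J-domain protein of HSP70, rose from mild to moderate in dendritic cells/monocytes by 1.57 (0.0479) and in T cells/NK cells by 2.19 (0.0186). Its call in dendritic cells/monocytes was lost without either mild library or moderate replicate 2.

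Other genes of the list were called in fewer comparisons. Hspa2, an HSP70 of testis and brain, was higher than sham in oligodendrocytes of the mild (1.88, adjusted p = 0.00697), moderate (1.75, 0.0119) and severe group (1.69, 0.0153). The call in the severe group was lost without sham replicate 1. Cryab, a small heat shock protein, fell from moderate to severe in fibroblasts by 1.96 (0.0446). In OPCs Dnajb4 rose from mild to moderate by 1.82 (0.0263) and fell from moderate to severe by 1.48 (0.029). In macrophages/microglia Dnajb4 was lower after mild injury than in sham (-1.65, adjusted p = 0.0448). The log2 fold change was -2.14 without sham replicate 1 and -0.74 without sham replicate 2. The call was lost without sham replicate 2 and when any 1 of the injured libraries was left out. In OPCs Stip1, which links HSP70 to HSP90, was higher in the severe group than in sham by 0.98 (0.0293), a call lost without sham replicate 1. In neutrophils Dnajb9, a J-domain protein of the endoplasmic reticulum, rose from mild to moderate by 3.46 (0.0137). That call was lost without sham replicate 1, either mild library or moderate replicate 2. In OPCs Dnajb9 was lower than in sham after mild (-1.19, 0.0308) and severe injury (-1.13, 0.0315), and both calls were lost without sham replicate 1. Of the list, endothelial cells called 0 in edgeR's test.

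Immediate early genes, a list of 18 genes that rise fast when cells are handled or stimulated, were set beside the members. They moved with the members in some comparisons and apart from them in others. In OPCs 8 were higher in the mild group than in sham, 11 after moderate and 0 after severe injury, and from moderate to severe 10 were lower. Against sham in OPCs, fewer were higher after mild and moderate injury without sham replicate 1, and more in each group without sham replicate 2. From mild to moderate 6 were higher in neutrophils, and 0 passed in dendritic cells/monocytes and T cells/NK cells. From moderate to severe 6 were lower in neutrophils, 7 in dendritic cells/monocytes and 6 in T cells/NK cells. The median of the list from moderate to severe was -1.36 in OPCs, -1.50 in dendritic cells/monocytes and -1.34 in neutrophils, beside -0.11, 0.00924 and -0.04 over all genes. In macrophages/microglia the sum of the list was 4821 CPM in sham replicate 1 and 11538 CPM in sham replicate 2, the reverse of the order of Hspa1b there, and it was 8855 and 8264 CPM in the mild, 13152 and 9916 CPM in the moderate, and 7100 and 6875 CPM in the severe libraries. Their part in the levels of the members was not tested.

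Genes with a like pattern were ranked by Spearman correlation of log2(CPM + 1) over the 58 sums, among 7546 genes of at least 10 CPM on average. The 5 nearest to Hspb1 included Hbegf (0.84), Lgalsl (0.80), Dipk1b (0.80) and LOC684871 (0.80). The 5 nearest to Hspa1b were RF00006 (0.75), LOC680491 (0.70), Bag3 (0.67), Tpm4 (0.67) and RF00100 (0.66), and those nearest to Hspa8 were Ybx1-ps3 (0.68), Srsf7 (0.68), LOC108348142 (0.67), Stip1 (0.67) and LOC108348062 (0.67). The RefSeq annotation names 33 pseudogenes after Hspa8, 23 after Hsp90ab1, 20 after Hspd1 and 16 after Hsp90aa1, so that reads of these genes can be shared with near-identical copies. The gene carried as Hspa1b in the files (ENSRNOG00000050647) has a near-identical neighbour, and which of the copies its reads came from cannot be told apart.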

How the data were processed

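Single cells of 8 rat spinal cord libraries, 2 in each of 4 groups, were captured with the 10x Genomics 3′ kit, version 3. The deposited values are raw UMI counts of 32623 genes per cell, which the authors made with Cell Ranger (5.0.1 per the file headers, another version than in their supplementary methods) on Rnor_6.0. No filter on cells beyond that of Cell Ranger and no normalization had been applied, and 0 columns were left unmapped.

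Cells with over 10% mitochondrial UMIs were removed, then the 7.7% of each library with the highest Scrublet scores (scanpy 1.11.5), then cells beyond the mean ± 2 SD of UMIs or genes. A cell took the type of the marker list of which it expressed at least 3 genes, with a lead of 0.1 in score over the next list. This left 7881 cells (14.2%) without a type, and 6730 cells (12.1%) lay within 0.05 of the lead limit. UMIs were summed per library and type. Sums of at least 20 cells were tested with edgeR 4.0.16 (R 4.3.3; filterByExpr, TMM, quasi-likelihood test, Benjamini-Hochberg adjustment over all genes), with all groups in 1 fit. Types were compared with library as a term. Alternatives were DESeq2 1.42.0, library size only, no filter, the replicate block, only the groups compared, each library left out, a mitochondrial limit of 20%, no doublet removal, sums of at least 50 cells and, added after seeing the data, other leads in the gate, the injured libraries alone and, in OPCs, the cell with the most Hspa1b UMIs of each library left out. Shares were taken after thinning cells to 1000 UMIs, or 500 in an alternative. The steps were tested on simulated counts. Python 3.11.15, numpy 2.4.6, scipy 1.17.1, pandas 2.3.3 and matplotlib 3.10.9 were used.

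The text names all members and, of 62 other chaperone genes and 18 immediate early genes, some of the up to 5 called genes of largest change in a comparison. For Hspa8, Hspb1 and the inducible member with most UMIs it names the 5 genes of most similar pattern, of which 1 is not reported here. The members and lists were chosen with earlier results of these data known. Genomic sequences and symbols of copies came from RefSeq tables of GRCr8, which is not the build of the counts, and no coordinates of Rnor_6.0 are given. The total UMIs of a library limit the precision of a sum: 3 UMIs stood for 0.0446 to 59.2 CPM in sums of at least 20 cells.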

Additional observations from a re-analysis of the deposited data

Results flagged for a closer look

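Some members moved in opposite directions in different cell types, with both libraries of a group on 1 side of both libraries of the other group in each type named here. Levels were means of CPM over 2 libraries, and the differences between the types were not tested. From mild to moderate, such separation held upward for 30.3% of all genes in dendritic cells/monocytes, 31.4% in macrophages/microglia, 26.3% in T cells/NK cells and 31.0% in OPCs, and downward for 21.0% in oligodendrocytes. From moderate to severe it held upward for 14.3% in neutrophils, and downward for 53.4% in macrophages/microglia, 39.0% in dendritic cells/monocytes and 49.4% in OPCs. From mild to moderate, Hspa8 was 1.33 times as high in dendritic cells/monocytes and 0.553 times as high in oligodendrocytes. Dnajb1 was 4.44 times as high in macrophages/microglia, 5.64 times in dendritic cells/monocytes, 2.64 times in T cells/NK cells and 2.17 times in OPCs, but 0.623 times as high in oligodendrocytes. In oligodendrocytes the Dnajb1 levels were 87.4 and 78.0 CPM in the mild and 56.8 and 46.3 CPM in the moderate libraries. From moderate to severe, Dnajb1 was 1.35 times as high in neutrophils, at 155 and 105 CPM against 172 and 177 CPM. It was 0.620 times as high in macrophages/microglia, 0.274 times in dendritic cells/monocytes and 0.391 times in OPCs. These ratios carry no TMM scaling. In macrophages/microglia, leaving TMM out moved the median of all genes from moderate to severe by -0.45 on the log2 scale. With TMM, the log2 fold change of Dnajb1 against sham there was 0.10 after moderate and -0.13 after severe injury, and neither was called.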

How the results depend on the processing

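No called difference of a member changed its direction under the alternatives run for it. Between groups, some alternatives were run in macrophages/microglia alone. These were library size only, only the groups compared, the mitochondrial limit, no doublet removal and the leads in the gate. No member was called between groups there, so the calls in other types were not put to these settings. In 92 cases a call was lost, mostly where 1 library was left out, with moderate replicate 2 (16) and mild replicate 1 (15) leading. Against sham in macrophages/microglia, where no member was called, leaving out 1 library gave 0 to 4 calls in the mild, 0 to 4 in the moderate and 0 to 5 in the severe group. DESeq2 called 3 members after mild and 1 after severe injury, no filter 4, 1 and 4 in the 3 groups, and a lead of 0.2 in the gate 1 in the mild group. Counts over all genes ran from 7 to 2042 in the mild group (1145 as reported), from 7 to 1336 in the moderate (490) and from 268 to 2002 in the severe group (1326) when 1 library was left out. For the same groups in that order they were 2348, 1529 and 2516 with DESeq2, 2684, 2037 and 2783 without the filter, and 0, 0 and 241 with only the 2 groups in the fit. Library size alone gave 2737 in the severe group, and no lead in the gate 282 in the moderate group.

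Whether the replicate numbers pair the libraries cannot be told from 2 libraries a group. In macrophages/microglia, deviations of libraries with the same number correlated between -0.30 and 0.26 over 6 pairs of groups, and 2 of these were over 0.1. The moderate group gave -0.23 with sham, -0.16 with mild and -0.30 with severe, and the other pairs gave 0.20, 0.02 and 0.26. With the replicate block, all-gene counts in macrophages/microglia were 463, 222 and 850 and member counts 0, 0 and 0. It gave 5 calls in place of 6 in the other types against sham and 23 in place of 21 between neighbouring degrees. Without 1 library these counts were 3 to 12 against sham and 8 to 31 between degrees, with DESeq2 11 and 33, and without the filter 20 and 50. The injured libraries alone gave 30 between degrees, and leaving out the Hspa1b-richest OPC of each library gave 7 against sham and 20 between degrees. Between cell types, 30 calls became 25 to 45 without 1 library and 47 by library size only. The cause of these changes was not tested. Apart from macrophages/microglia, counts over all genes under these settings are not given here, so the member counts have no background beside them.

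Members that were not called in macrophages/microglia changed sign against sham. Without 1 library, log2 fold changes in the mild group were -1.14 to 0.25 for Hsp90aa1, -0.16 to 0.38 for Hspa8, -0.28 to 0.98 for Hsp90ab1, -0.66 to 1.01 for Hspd1, -0.62 to 0.21 for Hspe1, -2.75 to 0.23 for Dnajb1, -7.85 to 0.64 for Hspa1b and -3.96 to 0.43 for Hsph1. In the moderate group they were -0.22 to 0.33 for Hspa8, -0.14 to 1.10 for Hsp90ab1, -0.71 to 0.94 for Hspd1, -0.54 to 0.27 for Hspe1, -0.64 to 2.32 for Dnajb1, -3.47 to 4.99 for Hspa1b, -1.65 to 2.72 for Hsph1 and -0.19 to 2.73 for Hspb1. In the severe group they were -1.02 to 0.38 for Hsp90aa1, -0.41 to 0.86 for Hsp90ab1, -0.62 to 1.05 for Hspd1, -0.89 to 2.10 for Dnajb1, -3.00 to 5.48 for Hspa1b, -1.96 to 2.43 for Hsph1 and -3.73 to 0.53 for Hspb1. Library size only turned Hspa8 (-0.10) and Hsp90ab1 (-0.0082) in the mild, Dnajb1 (-0.0527) in the moderate and Hsp90ab1 (-0.53) in the severe group. The block turned Hspa8 in the moderate group (0.0138), Hspd1 (0.0551) and Dnajb1 (0.24) in the severe group. Hspa8 in the moderate group also turned with no filter (0.0571), no lead (0.000435) and a lead of 0.2 (0.0607), Hspd1 in the severe group with no lead (0.0048), and Hsp90ab1 there with only the 2 groups (-0.0165). These sums held 571 to 7079 cells, and 3 UMIs stood for 0.0446 to 0.597 CPM.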

Other observations

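B cells entered no comparison between groups, since only sham replicate 1 (78 cells), severe replicate 1 (21) and severe replicate 2 (39) held at least 20 of them. Hspa1b was at 4705 CPM in sham replicate 1 and had no UMI in the severe libraries, where 3 UMIs would have made 59.2 and 29.4 CPM. Hsph1 was at 1414 CPM in sham replicate 1 and at 316 and 147 CPM in the severe libraries, and Hspa8 at 1814, 2624 and 1469.6 CPM. The 34 cells gated as neurons came in 0 to 16 cells per library. In the 16 of moderate replicate 2, Hspa1b was at 2698 CPM and Hsp90aa1 at 1166 CPM.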
